A study of Mus musculus with 12 samples.

Results

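The matrix metalloproteinases (Mmp genes) and the ADAMTS family (Adamts proteases and the related Adamtsl genes) were followed in visceral white adipose tissue of mice. Genes were chosen by symbol alone, as Mmp, Adamts or Adamtsl followed by a number (with an a or b where the symbol has one), and 47 of the 50559 gene symbols in the count files matched: 23 Mmp, 19 Adamts and 5 Adamtsl genes. A low-count filter that needed about 10 reads in enough libraries was passed by 36 of the 47 (13 Mmp, 18 Adamts and 5 Adamtsl genes), and tests and counts below refer to those 36. The tissue came from FVB/N mice in 4 groups of 3 RNA-seq libraries. Mice called wild type here carried the αMHC tTA driver, a transactivator under a heart muscle promoter. Transgenic mice had αMHC TGFb in addition to it, a gain of function of the growth factor TGF-b1 from the same promoter. Neither genotype was therefore free of tTA, and the promoter is one of heart muscle, not of fat. One group of each genotype was fed control chow with 17% of energy from fat (3.1 kcal/g), and the other a high-fat diet with 60% of energy from fat (5.21 kcal/g). High-fat feeding was given at 8 to 10 weeks of age for 2 or 6 weeks, and the labels do not assign a duration to any library. The design compares the diets in each genotype and the genotypes on each diet.

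Both families are zinc-dependent proteases that act outside the cell and are made as inactive precursors. Mmp enzymes are grouped by what they cut or where they sit: collagenases open fibrillar collagen, gelatinases cut denatured and basement membrane collagen, stromelysins have a broad range, and membrane-type enzymes stay anchored at the cell surface and can activate other members. Adamts proteases carry thrombospondin repeats that direct them to particular substrates, among them the large proteoglycans versican and aggrecan, procollagens and fibrillin microfibrils, and the Adamtsl proteins share those repeats but lack the protease domain. In adipose tissue the matrix around fat cells is remodelled as the cells enlarge, and both families are known for part in that remodelling.

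Libraries held 20.1 to 21.3 M counts over genes, and a count of 3, used as the floor of detection, corresponded to 0.132 to 0.157 CPM (counts per 1 M counts, scaled by library composition). The labels do not say that the libraries came from separate mice, so each p-value refers to the spread among these libraries, part of which may be technical. Adipocyte markers were high in every library (17200 to 23100 CPM summed over 6 genes). Some libraries also held RNA of other tissues. Liver markers summed to 318 CPM in wild-type high-fat library 2, against at most 63.9 CPM elsewhere. Schwann cell markers summed to 554 CPM in wild-type control library 1, against at most 387 CPM elsewhere. The ovary and uterus list summed to 645 CPM in transgenic high-fat library 3, against at most 358 CPM elsewhere. Its mean log2 level over the listed genes was 2.03 in that library, however, within the 1.81 to 2.36 of the others. That sum alone therefore does not show RNA of these organs. Epithelial markers summed to 94.6 CPM in wild-type control library 1 and 221 CPM in transgenic control library 2, against at most 8.1 CPM elsewhere, and striated muscle markers to 520 CPM in wild-type high-fat library 3 and 780 CPM in transgenic control library 3, against at most 84.9 CPM elsewhere; these pairs are called epithelial-rich and muscle-rich below. Tgfb1 itself stood at 46.5 ± 1.08 CPM (SD, n = 3) in wild-type control and 56.6 ± 5.28 CPM in transgenic control tissue, a level that does not check a transgene expressed in the heart. Since the RNA is of whole tissue, fewer cells of a type and less RNA per cell cannot be told apart.

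Together the 47 genes took 975 to 1660 CPM in a library, and a few genes made up most of that. The 2 most abundant, Adamts5 and Adamts2, held 41.8% of all reads of the families, the top 5 held 63%, and the top 10 held 80.3%. Levels of different genes are compared here as CPM per kb of exon, averaged over the 12 libraries. On that scale Mmp2 (gelatinase A) was highest at 39.7, followed by the proteoglycan-cleaving Adamts5 at 33.3, the procollagen N-proteinase Adamts2 at 23.4, Mmp28 at 19.1, the membrane-type Mmp14 at 17.4 and Mmp23 at 17.1. The ranges of Mmp2 (30.2 to 56.2 per kb) and Adamts5 (11.8 to 58.8 per kb) over all 12 libraries overlapped, and their order was not the same in every group. By group mean, Adamts5 lay above Mmp2 in wild-type high-fat tissue (51.0 against 43.3 per kb). It lay below Mmp2 in the other groups, for example in transgenic control tissue (14.3 against 31.9 per kb). Adamtsl5 (14.8), Adamts1 (13.8), Mmp19 (11.9) and Adamtsl4 (9.37) came next, then Mmp11 (7.86), Mmp15 (6.11), Adamts10 (5.21) and Adamts12 (4.83). The low end held Adamts8 (0.186), Adamts17 (0.171), Mmp16 (0.16), Adamts18 (0.116) and Adamts20 (0.0691). Exons of Mmp19 overlap genes on the opposite strand over 29% of their length, those of Adamts8 over 13.5%, of Mmp28 over 12.3% and of Adamts9 over 7.36%. Whether strand was used in the counting is not known here. Reads from the shared stretches of these 4 genes therefore cannot be told apart from those of their partners.

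**Figure D1:**
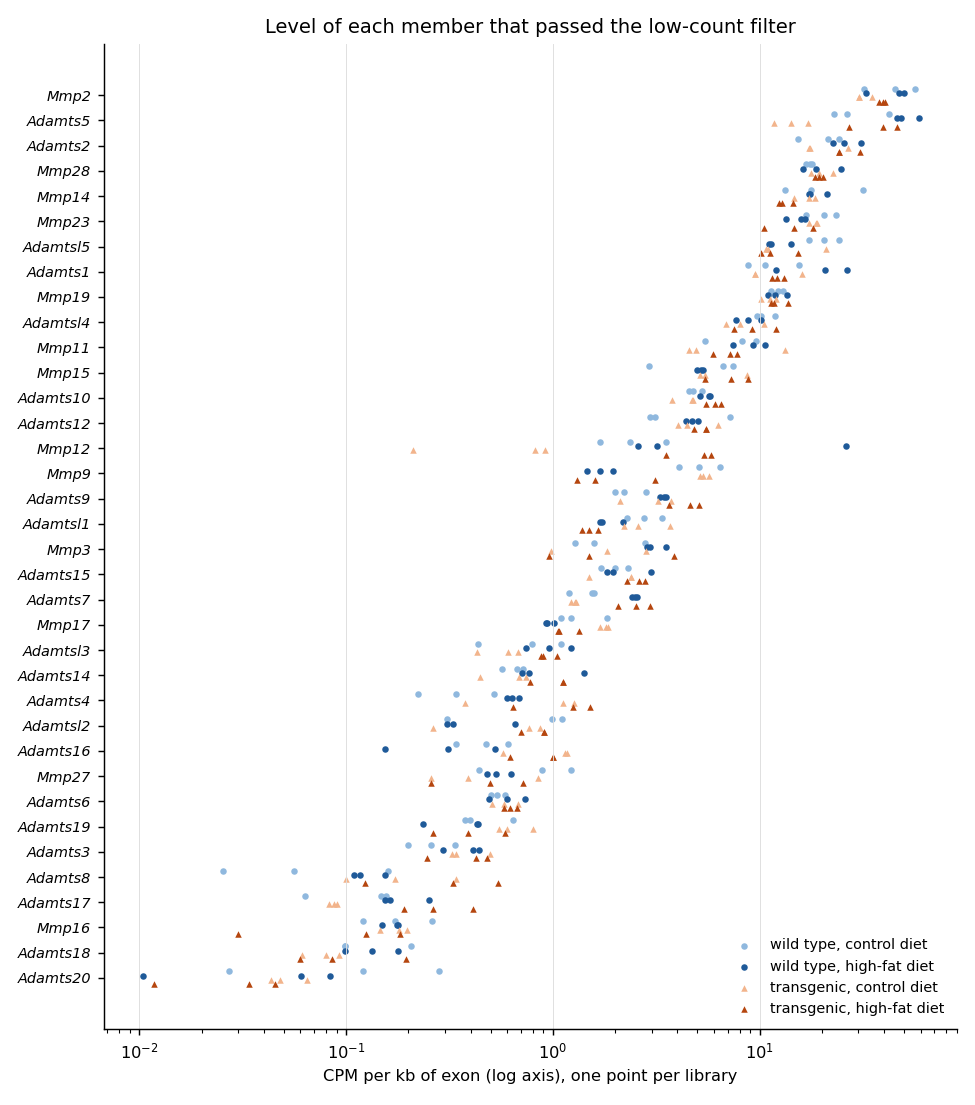
CPM per kb of exon (x axis, logarithmic) of the 36 genes that passed the low-count filter, ordered by their mean, with 1 point per library coloured by group. Mmp2 and Adamts5 lie at the top with overlapping ranges, and Mmp12 spreads most widely for its level, from 0.212 to 26.1 CPM per kb.

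The 11 genes that failed the filter were Mmp13, Mmp25, Mmp24, Mmp8, Mmp10, Mmp21, Mmp7, Mmp1a, Mmp1b, Mmp20 and Adamts13, the protease of von Willebrand factor. None of them reached 1 CPM in any library, and the highest single value was 0.789 CPM for Mmp13 in wild-type high-fat library 3. All 4 genes of the collagenase group (Mmp1a, Mmp1b, Mmp8 and Mmp13) were among them. Mmp1a, Mmp1b and the enamel protease Mmp20 had no count in any of the 12 libraries, which allows at most the 3-count floor of 0.132 to 0.157 CPM in each. Mmp1a and Mmp1b are copies of 1 ancestral gene, Mmp1a is annotated as a polymorphic pseudogene, and how reads shared by such copies were treated is not stated.

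Diet was tested first. With the genotypes averaged, 9 of the 36 tested genes differed between diets in edgeR's quasi-likelihood test at an adjusted p under 0.05: Adamts7, Adamts5, Mmp12, Adamts17, Adamts10 and Adamts9 rose on the high-fat diet, and Mmp9, Adamtsl1 and Mmp17 fell. Of all genes tested, 17.4% were called in that comparison (9.43% raised and 7.98% lowered), and of the 36 genes 25% (6 raised and 3 lowered). The median log2 fold change of the 36 genes was 0.11, against -0.02 over all genes. Within the families, 15 of 18 Adamts genes had a positive value, against 7816 of 16550 over all genes. Of the Adamts genes 5 passed the test as raised and none as lowered, while of 13 Mmp genes 1 was raised and 2 were lowered.

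Within each genotype fewer genes passed. In transgenic tissue 7 of 36 were called, 5 raised (Adamts7, Adamts5, Adamts17, Adamts10 and Mmp12) and 2 lowered (Mmp9 and Adamtsl1), against 8.73% of all genes in that comparison (5.39% raised and 3.34% lowered). In wild-type tissue 2 of 36 were called, Adamts7 raised and Mmp9 lowered, against 1.14% of all genes (0.683% raised and 0.453% lowered). The groups did not overlap in CPM for 10 of 36 in wild-type tissue, where 24.9% of all genes had no overlap, and for 12 of 36 in transgenic tissue, where the share was 27.8%, so both counts were near the background. The wild-type count fell to 0 without wild-type control library 1 or 2 or any 1 of the 3 wild-type high-fat libraries, and to 1 without wild-type control library 3. The transgenic count was 4 without transgenic control library 1 or 2 or high-fat library 2, and 3 without high-fat library 3, while the averaged count stayed between 9 and 11 with each library left out in turn.

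**Figure D2:**
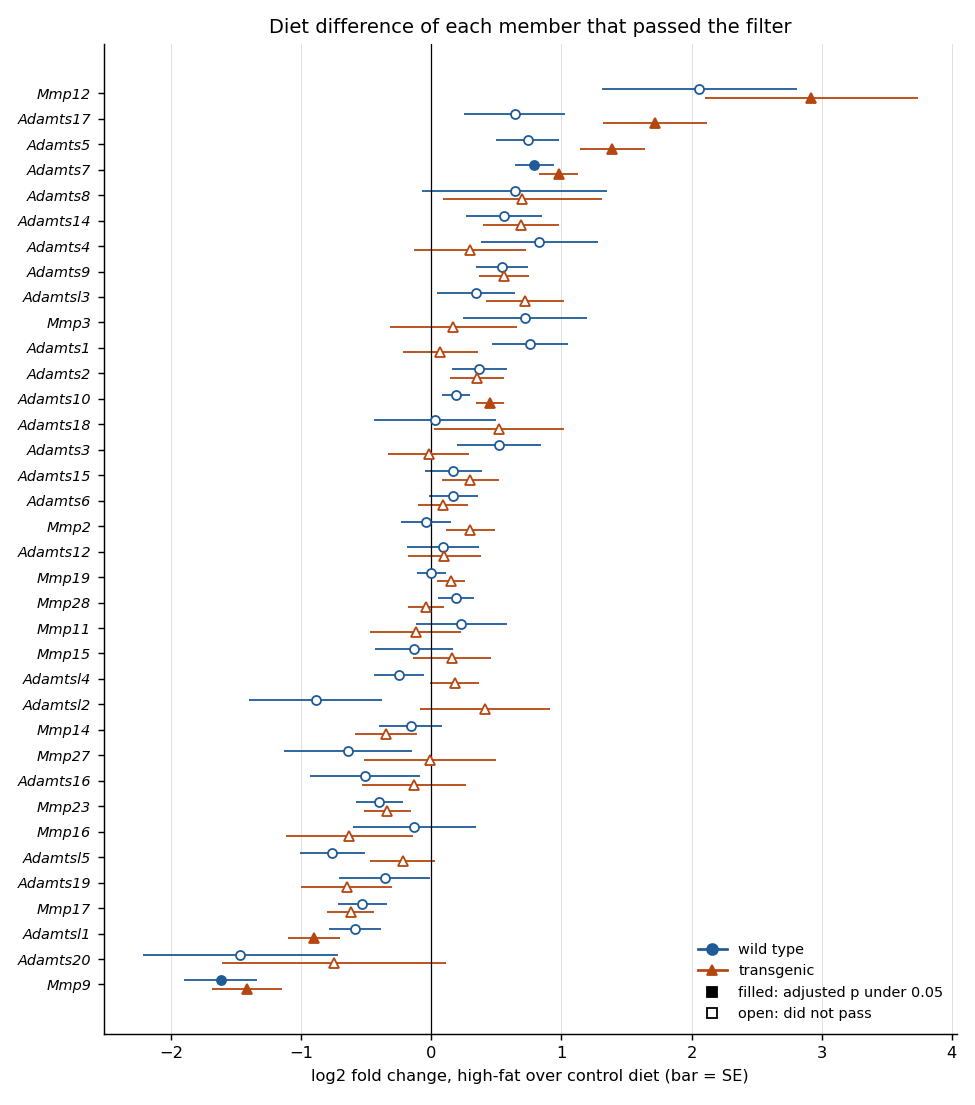
Log2 fold change of high-fat over control diet (x axis, bars are the standard error) for the 36 tested genes in wild-type (circles) and transgenic (triangles) tissue, ordered by the value averaged over genotypes, with filled symbols for an adjusted p under 0.05. Mmp12 lies at the top with 2.06 and 2.92, and Mmp9 at the bottom with -1.62 and -1.42.

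Mmp9 (gelatinase B; chromosome 2, 164940326 to 164955850 in GRCm38.p6), which cuts denatured collagen and type IV collagen and is stored in neutrophil granules, fell on the high-fat diet in both genotypes. Its CPM values were 20.4, 16.2 and 13 in wild-type control tissue and 6.19, 4.62 and 5.34 on the high-fat diet. Transgenic tissue held 16.3, 18.1 and 16.9 on the control diet and 5.08, 9.93 and 4.14 on the high-fat diet. All 6 control libraries lay above all 6 high-fat libraries. The log2 fold change was -1.62 (SE 0.28; edgeR adjusted p = 0.0244) in wild-type and -1.42 (SE 0.27; adjusted p = 0.0107) in transgenic tissue, and -1.52 (SE 0.2; adjusted p = 0.000682) with the genotypes averaged. The transgenic and averaged calls held with each of the 12 libraries left out. The wild-type call was lost, at an adjusted p of 0.0712 to 0.137, without wild-type control library 1 or 2 or any 1 of the wild-type high-fat libraries, and also without both epithelial-rich (0.0981) or both muscle-rich libraries (0.0735).

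Mmp2, the other gelatinase and the product of stromal cells in most tissues, passed no test for diet. It stood at 137 ± 37.2 CPM (SD, n = 3) in wild-type control, 133 ± 28.2 in wild-type high-fat, 98.1 ± 8.64 in transgenic control and 121 ± 4.28 in transgenic high-fat tissue. The averaged diet difference was 0.13 on the log2 scale (SE 0.13; 95% interval from edgeR -0.16 to 0.42; adjusted p = 0.531). Of the 2 gelatinases only Mmp9 was called.

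Mesothelial and mast cell lists, like Mmp9, had genes lowered by diet in the average, while no tested gene of the neutrophil list was lowered. The neutrophil list is 8 genes, of which 2 passed the filter, and its sum was 1.16 to 2.77 CPM in control tissue apart from 16.6 CPM in wild-type control library 1, and 1.44 to 5.06 CPM in high-fat tissue. Ly6g, a defining neutrophil marker, was at 0 in every library. Of the 2 tested genes, S100a8 was raised by diet in the average (1.42, SE 0.39; edgeR adjusted p = 0.0286), and S100a9 was not called (0.02, SE 0.82; adjusted p = 0.991), with 1.47 in wild-type and -1.43 in transgenic tissue. The mesothelial list, 6 genes typical of the lining of the body cavity, summed to 515 to 856 CPM in control and 108 to 422 CPM in high-fat libraries, and 4 of its 6 genes were lowered in the averaged comparison. Mast cell markers, with 3 of 5 tested genes lowered, summed to 32.9 to 63.3 CPM in control and 17.3 to 43.4 CPM in high-fat libraries. The part of neutrophil, mesothelial and mast cell RNA in the fall of Mmp9 was not tested.

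Mmp12, the metalloelastase of macrophages, had the largest averaged rise among the 36 genes. CPM values were 14.1, 6.7 and 9.44 in wild-type control and 104, 12.7 and 10.3 in wild-type high-fat tissue. Transgenic values were 0.843, 3.25 and 3.66 on the control diet and 21.5, 14.1 and 23.3 on the high-fat diet. In transgenic tissue every high-fat library lay above every control library, whereas in wild-type tissue the groups overlapped and 1 library, high-fat library 1, stood far above the rest. The log2 fold change was 2.92 in transgenic tissue (SE 0.82; edgeR adjusted p = 0.0468), 2.06 in wild-type tissue (SE 0.75; adjusted p = 0.176) and 2.49 in the average (SE 0.56; adjusted p = 0.0107). Without wild-type high-fat library 1 the averaged value was 1.55 (adjusted p = 0.0106). The transgenic call was lost, at an adjusted p of 0.0592 to 0.155, without any 1 of the 6 transgenic or 3 wild-type control libraries. It was also lost without both epithelial-rich libraries (adjusted p = 0.112), with the replicate number as a block (0.0574) and in limma-voom (0.14), and limma-voom did not call the averaged difference either (2.19; adjusted p = 0.0571).

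The macrophage list moved with Mmp12 in part. Its 10 genes summed to 726 to 910 CPM in wild-type control, 780 to 1150 CPM in wild-type high-fat, 589 to 656 CPM in transgenic control and 734 to 1080 CPM in transgenic high-fat tissue. The highest sum, 1150 CPM, was in wild-type high-fat library 1, the library with 104 CPM of Mmp12, and the 3 lowest sums were in the transgenic control libraries, which also held the 3 lowest Mmp12 values. Between these ends the orders differed. Transgenic high-fat library 3, with 23.3 CPM of Mmp12, had a sum of 734 CPM, and wild-type control library 1, with 14.1 CPM, had 910 CPM. In the averaged comparison 3 of the 10 markers were raised (Itgax, 2.32, SE 0.25, edgeR adjusted p = 0.000334, together with Mpeg1 and Cd68), and Trem2 was lowered (-1.02, SE 0.24; adjusted p = 0.0136). The part of macrophage number in the rise of Mmp12 was not tested.

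**Figure D3:**
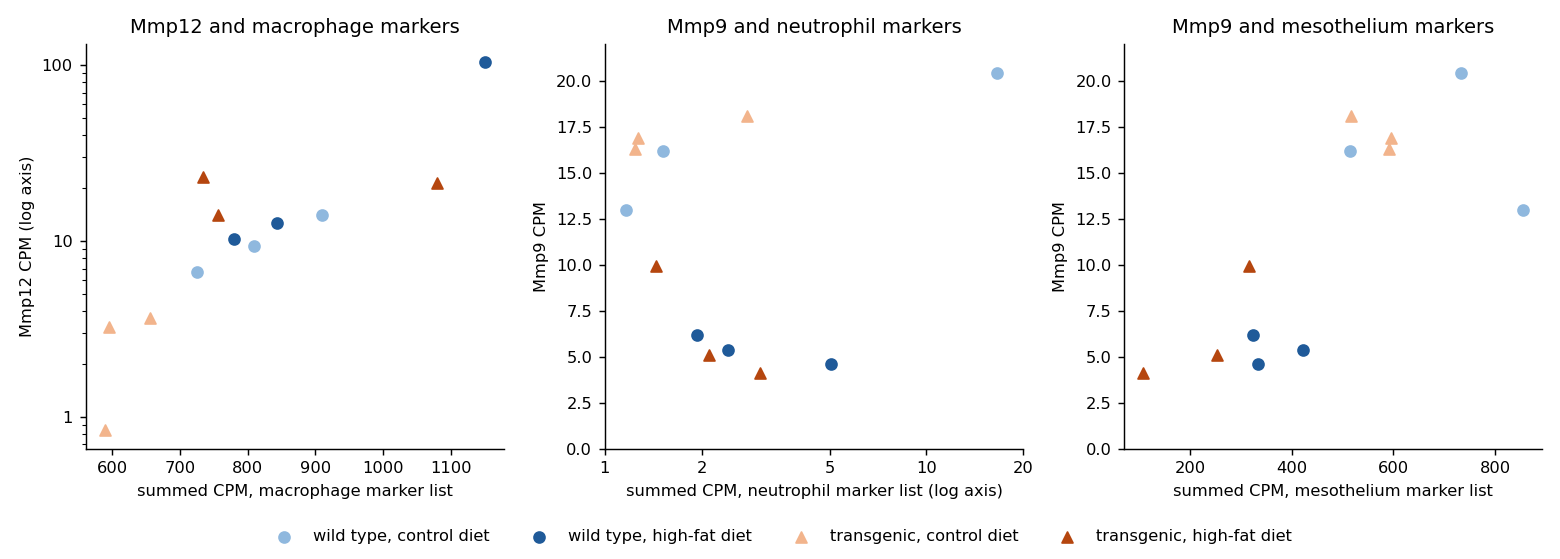
CPM of Mmp12 against the summed CPM of macrophage markers, and CPM of Mmp9 against the summed CPM of neutrophil and of mesothelial markers, with 1 point per library. The library with 104 CPM of Mmp12 has the highest macrophage sum, and the high-fat libraries hold both the lower Mmp9 values (at most 9.93 CPM) and the lower mesothelial sums (at most 422 CPM).

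Mmp12 lies in a cluster of 10 Mmp genes on chromosome 9 (7272514 to 7699585 in GRCm38.p6; 427 kb), in the order Mmp13, Mmp12, Mmp1b, Mmp3, Mmp1a, Mmp10, Mmp8, Mmp27, Mmp20 and Mmp7. Only Mmp12, Mmp3 (stromelysin-1) and Mmp27 passed the filter, and the diet call was for Mmp12 alone. Mmp3 had averaged values of 0.44 (SE 0.34; edgeR adjusted p = 0.399) and Mmp27 of -0.32 (SE 0.35; adjusted p = 0.561). Promoters of the cluster were compared because neighbouring genes differed widely in level. RefSeq promoter windows of GRCm38.p6, 250 bases before to 50 after each start site, were at hand for 32 of the 47 genes and for all 10 of the cluster. Genes without a window all lay outside the cluster and included Mmp9, Adamts5, Adamts7, Adamts10, Adamtsl1 and Mmp17. A gene was counted when any of its start sites had a match, whereas the background shares are over single promoters. An AP-1 element (TGANTCA, both strands, the site of Fos and Jun dimers) was present in 8 of the 10 cluster genes and in none of the other 22 genes with a promoter, against 7.81% of 32851 promoters. A TATA element (TATAAA, both strands) was in 9 of 10 cluster genes and 3 of the other 22, against 13.6% of all promoters, and both were found together in 8 of 10, against 1.54% of all promoters. The Smad-binding CAGA box (AGCCAGACA, both strands) was in none of the 32 genes and in 0.387% of all promoters. The windows from 120 bases before to 20 bases after the start site are shown for 4 genes, Mmp12 (the second of its start sites in the table), its expressed neighbour Mmp3 and the scarcely detected Mmp13 and Mmp10, with AP-1 and TATA matches in capitals, all on the plus strand at chr9:7347254-7347393, chr9:7445702-7445841, chr9:7272394-7272533 and chr9:7502222-7502361.
Mmp12: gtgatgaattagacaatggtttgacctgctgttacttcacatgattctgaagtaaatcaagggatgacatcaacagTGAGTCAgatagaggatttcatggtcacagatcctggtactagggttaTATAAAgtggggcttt
Mmp3: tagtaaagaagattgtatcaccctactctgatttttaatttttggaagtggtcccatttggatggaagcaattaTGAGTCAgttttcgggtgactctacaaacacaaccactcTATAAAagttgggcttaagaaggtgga
Mmp13: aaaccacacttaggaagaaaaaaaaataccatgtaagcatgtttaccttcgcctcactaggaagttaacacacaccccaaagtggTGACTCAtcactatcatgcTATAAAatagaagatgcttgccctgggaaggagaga
Mmp10: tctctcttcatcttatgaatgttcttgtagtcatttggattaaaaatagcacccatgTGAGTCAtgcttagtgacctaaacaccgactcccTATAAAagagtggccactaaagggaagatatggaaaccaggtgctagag

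The AP-1 letters were TGAGTCA in Mmp12, Mmp3 and Mmp10 and TGACTCA in Mmp13. The first base of the element lies 44 bases before the start site in Mmp12, 46 in Mmp3, 35 in Mmp13 and 63 in Mmp10. The TATA match did not keep 1 place: its first base lies 29 bases before the start site in Mmp10, 16 in Mmp13 and 7 in Mmp3. In Mmp12 it lies after the start site (-4 on the same scale). No other listed start site of Mmp12 had either match. These are matches of letters and not sites shown to be bound. The 4 genes, which hold both matches at different distances, had very different levels: Mmp12 reached 104 CPM, Mmp3 lay between 1.73 and 6.91 CPM, Mmp13 reached at most 0.789 CPM and Mmp10 at most 0.176 CPM.

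**Figure D4:**
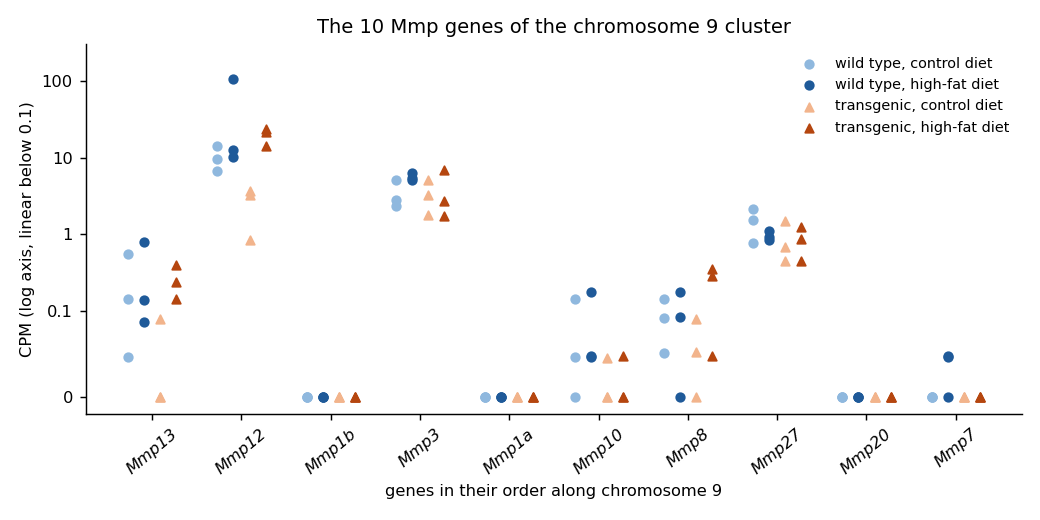
CPM by library (y axis, logarithmic above 0.1 and linear below) of the 10 Mmp genes of the chromosome 9 cluster in their order along the chromosome, with 1 point per library coloured by group. Mmp12, Mmp3 and Mmp27 stand above the remaining 7 genes, which stay at or below 0.789 CPM, and Mmp12 covers the widest range.

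Among the enzymes held at the cell surface, Mmp17, a membrane-type enzyme with a lipid anchor, fell. Its CPM values were 7.03, 7.82 and 11.8 in wild-type control and 6, 5.98 and 6.5 in wild-type high-fat tissue. In the transgenic groups they were 11.9, 10.8 and 11.6 on the control diet and 6.91, 8.59 and 6.83 on the high-fat diet. Within each genotype the groups did not overlap. The averaged log2 fold change was -0.57 (SE 0.13; edgeR adjusted p = 0.0119), while the difference did not pass in wild-type (-0.53, adjusted p = 0.166) or transgenic tissue alone (-0.62, adjusted p = 0.057). Mmp14, the cell-surface activator of Mmp2, had an averaged value of -0.26 (SE 0.17; adjusted p = 0.329), Mmp15 of 0.01 (SE 0.21; adjusted p = 0.976), Mmp16 of -0.38 (adjusted p = 0.467) and Mmp23 of -0.37 (SE 0.13; adjusted p = 0.0611). Of the other Mmp genes, Mmp19 (0.08; 95% interval -0.09 to 0.25; adjusted p = 0.541), Mmp28 (0.08; -0.14 to 0.29; adjusted p = 0.637) and the stromelysin Mmp11 (0.05; -0.48 to 0.59; adjusted p = 0.906) did not pass either.

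The hyalectanases, Adamts proteases that cut versican, aggrecan and their relatives, were represented by 7 genes that all passed the filter. Adamts5 (aggrecanase-2; chromosome 16, 85858157 to 85901125) was the most abundant of them. Its CPM values were 284, 454 and 247 in wild-type control and 634, 519 and 497 in wild-type high-fat tissue. Transgenic libraries held 153, 184 and 127 on the control diet and 292, 428 and 498 on the high-fat diet. The high-fat libraries lay above the control libraries within each genotype, and the transgenic control libraries were the lowest of all 12. The log2 fold change with diet was 1.39 in transgenic tissue (SE 0.25; edgeR adjusted p = 0.00697), a call kept with each of the 12 libraries left out, 0.74 in wild-type tissue (SE 0.24; adjusted p = 0.141) and 1.07 in the average (SE 0.17; adjusted p = 0.00219).

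Adamts9, which cuts versican, rose in the average by 0.55 (SE 0.14; edgeR adjusted p = 0.0181), from 18.8 ± 3.42 to 27.4 ± 1.02 CPM (SD, n = 3) in wild-type and from 24.3 ± 6.59 to 35.7 ± 5.87 CPM in transgenic tissue, where the diets overlapped. Adamts1, the neighbour of Adamts5 on chromosome 16, had 42.8, 75.7 and 52 CPM in wild-type control and 129, 101 and 58.9 CPM in wild-type high-fat tissue, which overlapped, and its averaged value was 0.41 (SE 0.2; adjusted p = 0.179). Adamts4 (aggrecanase-1; 0.56, adjusted p = 0.229), Adamts15 (0.23, adjusted p = 0.325) and Adamts8 (0.67, adjusted p = 0.349) did not pass. Adamts20 had its highest value, 2.38 CPM, in wild-type control library 1, and transgenic control library 2 held 0.366 CPM. Both are epithelial-rich but differ in content: of 11 epithelial markers, 0 were at 0 in the former and 5 in the latter. The part of epithelial RNA in these values was not tested. Adamts20 had an averaged value of -1.11 (SE 0.57; adjusted p = 0.198). Of the group's 7 genes, 2 were thus raised by diet in the average and none lowered.

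Adamts7, a protease known to cut cartilage oligomeric matrix protein (COMP) in the vessel wall and cartilage, gave the smallest p-value of the 36 genes (chromosome 9, 90162904 to 90200102). CPM values were 9.02, 8.84 and 6.89 in wild-type control and 13.9, 14.6 and 14.3 in wild-type high-fat tissue. In transgenic tissue they were 7.05, 7.38 and 7.46 on the control diet and 11.8, 14.4 and 17 on the high-fat diet. All 6 high-fat libraries lay above all 6 control libraries. The log2 fold change was 0.79 (SE 0.15; edgeR adjusted p = 0.0342) in wild-type, 0.98 (SE 0.15; adjusted p = 0.00353) in transgenic tissue and 0.89 (SE 0.11; adjusted p = 0.000517) in the average. The wild-type call was lost, at an adjusted p of 0.0581 to 0.147, without any 1 of the 6 wild-type libraries, and also without both epithelial-rich (0.095) or both muscle-rich libraries (0.0816) or with the replicate number as a block (0.0606). The transgenic and averaged calls were kept with every library left out. Adamts12, the related COMP-cleaving enzyme, was more abundant per length (4.83 against 1.93 CPM per kb) and had an averaged value of 0.09 (SE 0.2; adjusted p = 0.78). Comp itself stood at 0.209 ± 0.121 to 0.643 ± 0.342 CPM (SD, n = 3) over the 4 groups, near the floor of detection.

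**Figure D5:**
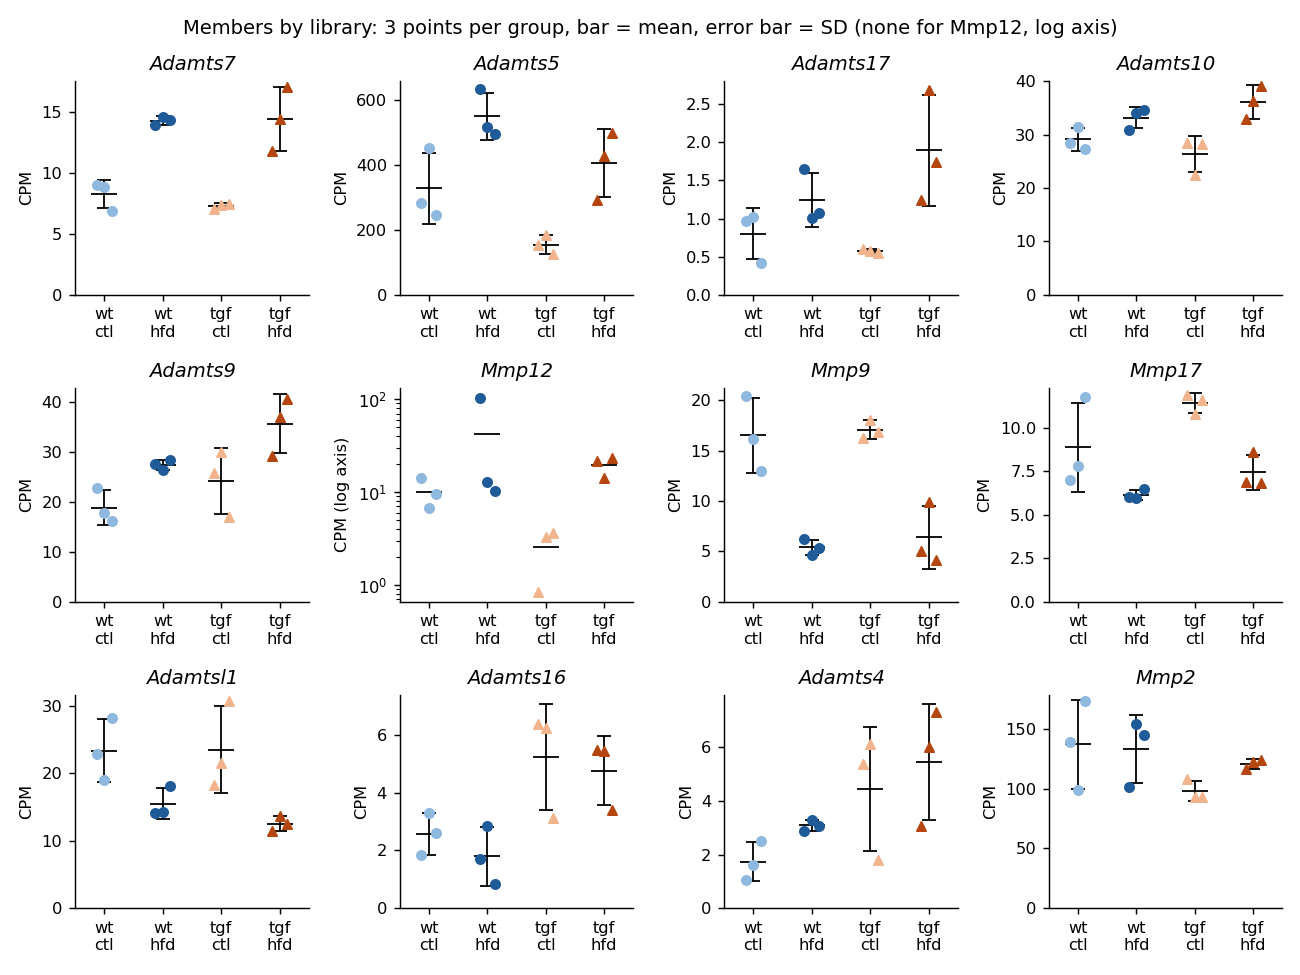
CPM by library (y axis; logarithmic for Mmp12 only) in each group for the 9 genes called for diet in the average and for Adamts16, Adamts4 and Mmp2, where wt and tgf stand for wild type and transgenic and ctl and hfd for control and high-fat diet; black bars are means and error bars SDs (SDs are not drawn for Mmp12). All high-fat points of Adamts7 lie above the control points, those of Mmp9 and Adamtsl1 lie below, and Adamts16 reaches 6.35 CPM in transgenic and at most 3.3 CPM in wild-type tissue.

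Adamts10, known for its part in fibrillin microfibrils, rose in transgenic tissue and in the average. It was at 29.1 ± 2.16 and 33.2 ± 2.05 CPM (SD, n = 3) in wild-type control and high-fat tissue and at 26.4 ± 3.39 and 36.1 ± 3.1 CPM in transgenic tissue. The log2 fold change was 0.45 (SE 0.11; edgeR adjusted p = 0.0297) in transgenic tissue and 0.32 (SE 0.08; adjusted p = 0.0176) in the average. The transgenic call was lost, at an adjusted p of 0.0515 to 0.106, without transgenic control library 1 or 2 or transgenic high-fat library 2 or 3. It was also lost without both epithelial-rich libraries (0.106), without both muscle-rich libraries (0.0507), with the replicate number as a block (0.0538) and with the 6 transgenic libraries alone (0.0833). The averaged call was lost without both epithelial-rich libraries (0.27; adjusted p = 0.0618). Its close relative Adamts6 had an averaged value of 0.13 (SE 0.14; adjusted p = 0.56).

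Adamts17 was scarce, with CPM values of 0.97, 1.02 and 0.416 in wild-type control, 1.65, 1.01 and 1.07 in wild-type high-fat, 0.595, 0.576 and 0.542 in transgenic control and 1.25, 2.69 and 1.74 in transgenic high-fat tissue. The transgenic groups did not overlap and the wild-type groups did. The difference was 1.72 (SE 0.4; edgeR adjusted p = 0.0231) in transgenic tissue and 1.18 (SE 0.28; adjusted p = 0.0144) in the average. In transgenic tissue the call was lost, at an adjusted p of 0.0541 to 0.0752, without any 1 of the transgenic control libraries or transgenic high-fat library 2 or 3, and also without both epithelial-rich (0.0716) or both muscle-rich libraries (0.0687).

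The procollagen N-proteinases, which trim the amino end of fibrillar procollagens, gave positive averaged values without a call: 0.36 for Adamts2 (SE 0.15; edgeR adjusted p = 0.106), 0.62 for Adamts14 (SE 0.21; adjusted p = 0.0567) and 0.25 for Adamts3 (SE 0.22; adjusted p = 0.468). Adamts2 stood at 148 ± 33.4 and 191 ± 30.4 CPM (SD, n = 3) in wild-type control and high-fat tissue and at 150 ± 39.2 and 191 ± 27.5 CPM in transgenic tissue. Fibrillar collagens and the genes that process procollagen, listed separately, had 5 of 11 tested genes raised and none lowered in the same comparison, with a list median of 0.4.

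Of the Adamtsl genes, Adamtsl1 (punctin) fell. CPM values were 22.9, 19 and 28.2 in wild-type control and 14.1, 14.3 and 18.2 in wild-type high-fat tissue. In transgenic tissue they were 18.3, 21.5 and 30.7 on the control diet and 11.5, 13.7 and 12.5 on the high-fat diet. All 6 high-fat libraries lay below all 6 control libraries, the highest of the former at 18.2 and the lowest of the latter at 18.3. The log2 fold change was -0.9 in transgenic tissue (SE 0.2; edgeR adjusted p = 0.0183), -0.59 in wild-type tissue (SE 0.2; adjusted p = 0.149) and -0.75 in the average (SE 0.14; adjusted p = 0.00465). The transgenic call was lost without transgenic high-fat library 1 (adjusted p = 0.0598) or 3 (adjusted p = 0.0675). Adamtsl5, a microfibril-binding relative, had 51.7, 43.5 and 36.7 CPM in wild-type control and 23.7, 24.1 and 30 CPM in wild-type high-fat tissue, which did not overlap, and a value of -0.76 (SE 0.25; adjusted p = 0.141) that did not pass. Adamtsl3 (0.53, adjusted p = 0.107), Adamtsl2 (-0.24, adjusted p = 0.679) and Adamtsl4 (-0.04, adjusted p = 0.874) were not called in the average. Adamts7, Mmp9 and Adamtsl1 were the 3 of 36 genes without overlap between all 6 libraries of each diet, against 6.77% of all genes.

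The transgene gave no call among the 36 genes in edgeR: 0 on the control diet, where 0.0363% of all genes were called, 0 on the high-fat diet, where the share was 0%, and 0 with the diets averaged, where it was 0%. At an unadjusted p under 0.05 there were 5, 3 and 9 of 36 genes, against 11%, 6.73% and 12.3% of all genes. DESeq2 called 1 on the control diet (Adamts5; 1.69% of all genes with an adjusted p), 0 on the high-fat diet and 3 in the average (Adamts5, Adamts16 and Adamts4; 1.55% of all genes), and limma-voom called 0 in each. Groups did not overlap for 3 of 36 genes on the control diet (14.1% of all genes) and for 7 of 36 on the high-fat diet (14% of all genes), and for 0 of 36 over all 6 libraries of each genotype (0.411% of all genes).

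Adamts5 had the smallest p-value for the transgene on the control diet. Its CPM values, 247 to 454 in wild-type and 127 to 184 in transgenic control libraries, did not overlap. The log2 difference was -1.09 (SE 0.24; edgeR adjusted p = 0.147), with an adjusted p of 0.00201 in DESeq2 and 0.0969 in limma-voom. On the high-fat diet the value was -0.44 (SE 0.24; edgeR adjusted p = 0.769) and the libraries overlapped.

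Adamts16, a protease expressed in kidney and gonad and known to cut fibronectin, had the smallest p-value on the high-fat diet. Its CPM values were 1.84, 3.3 and 2.59 in wild-type control and 1.7, 2.86 and 0.836 in wild-type high-fat tissue. In the transgenic groups they were 6.35, 6.23 and 3.12 on the control diet and 5.47, 5.42 and 3.39 on the high-fat diet. The groups overlapped on the control diet only. The log2 difference was 1.02 (SE 0.41; edgeR adjusted p = 0.38) on the control diet, 1.4 (SE 0.41; adjusted p = 0.712) on the high-fat diet and 1.21 (SE 0.29; adjusted p = 0.188; DESeq2 adjusted p = 0.00739) in the average. Adamts4 had 1.07, 1.63 and 2.5 CPM in wild-type control and 5.36, 6.12 and 1.81 CPM in transgenic control tissue, a difference of 1.35 (SE 0.45; edgeR adjusted p = 0.3) with overlap. Transgenic control library 2, the highest of them at 6.12 CPM, is rich in epithelial transcripts. So is wild-type control library 1, the lowest of them at 1.07 CPM. Without both, the Adamts4 difference was 0.78 (edgeR adjusted p = 0.817). The part of epithelial RNA in these values was not tested. Mmp12 had a difference of -1.96 on the control diet (SE 0.82; adjusted p = 0.406), with macrophage marker sums of 589 to 656 CPM there against 726 to 910 CPM in wild-type control tissue. Mmp2 (-0.48, adjusted p = 0.376) on the control diet and Adamts1 (-0.69, adjusted p = 0.714) and Adamts8 (1.38, adjusted p = 0.736) on the high-fat diet had the next smallest p-values.

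Whether the diet difference itself changed with the transgene was tested by the interaction, the diet difference in transgenic minus that in wild-type tissue. None of the 36 genes passed in edgeR, DESeq2 or limma-voom, none had an unadjusted p under 0.05 in edgeR, and 0% of all genes were called by edgeR (5.61% at an unadjusted p under 0.05). The smallest p-values were those of Adamts17 (1.08, SE 0.56, 95% interval -0.14 to 2.3), Adamts5 (0.65, SE 0.34, -0.09 to 1.39) and Adamtsl2 (1.31, SE 0.71, -0.23 to 2.85), each with an adjusted p of 0.864. The calls made in transgenic tissue only are thus not shown to differ from wild-type tissue. For Mmp9 and Adamts7 the interaction was 0.2 and 0.19 on the log2 scale.

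Genes that work with the proteases were counted in lists, with the averaged diet comparison as reference (17.4% of all genes called). In a list of inhibitors of these enzymes and of genes related to them, 2 of 9 tested genes were raised and 5 lowered, with a list median of -0.49. The list holds Spock2 as a member of the testican family, and whether it inhibits these enzymes was not tested. Timp1 rose (1.65, SE 0.32; edgeR adjusted p = 0.00583) and so did Tfpi2 (0.97, SE 0.17; adjusted p = 0.00326), while the lowered genes included the testican Spock2 (-1.33, SE 0.17; adjusted p = 0.000709), Timp4 (-1.62, SE 0.26; adjusted p = 0.00228) and Timp2 (-0.49, SE 0.1; adjusted p = 0.00795). Of 13 activators and plasminogen system genes none was raised and 3 were lowered: the proprotein convertase Pcsk5 (-0.82, SE 0.17; adjusted p = 0.00826) and the mast cell chymases Cma1 and Mcpt4 (-1.08 and -0.98). Furin, which activates many members, had -0.19 (adjusted p = 0.299).

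Substrates were listed by kind. Of 13 basement membrane genes 7 were raised and 1 lowered, with Col15a1 (1.06, SE 0.13; edgeR adjusted p = 0.000541) and the perlecan gene Hspg2 (1, SE 0.17; adjusted p = 0.00263) among the raised. Of 11 proteoglycans and other Adamts substrates 2 were raised (Bgn, biglycan, and Tfpi2, which the inhibitor list also holds) and 2 lowered (Dcn, decorin, and Thbs2). Versican (Vcan) had 0.36 (SE 0.15; adjusted p = 0.123), and aggrecan (Acan) had at most 4 reads in a group, so of these named substrates of Adamts5 the former did not pass and the latter could not be measured. Of 13 microfibril and elastic fibre genes 1 was raised (Mfap4), and of 7 surface partners 1 was raised (Cd44, a docking site of Mmp9; 1.19, SE 0.11; adjusted p = 0.000136). Among 10 proteases of the related ADAM family 3 were raised and none lowered (Adam8, 1.82, SE 0.4; adjusted p = 0.00958; Adam19 and Adam23). Of 9 AP-1 subunits and cytokines known to induce Mmp genes 2 were raised, Tgfb1 (0.49, SE 0.06; adjusted p = 0.000627) and Tnf (1.55, SE 0.48; adjusted p = 0.0441). In the averaged transgene comparison none of these 9 lists had a call.

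The authors' deposited tables, 1 for each of the 4 comparisons of 2 groups, give an adjusted p for 36 of the genes for diet in wild-type tissue, 35 in transgenic tissue, and 36 and 29 for the transgene on the control and high-fat diets. For diet in wild-type tissue the authors' deposited table calls 3 raised (Adamts5, Adamts7 and Adamts9) and 3 lowered (Adamtsl1, Adamtsl5 and Mmp9), against 5.98% of all its genes. For diet in transgenic tissue the authors' deposited table calls 4 raised (Adamts17, Adamts5, Adamts7 and Mmp12) and 3 lowered (Adamtsl1, Mmp17 and Mmp9), against 9.88% of all its genes. For the transgene, the authors' deposited tables list Adamts5 (-1.08, adjusted p = 0.00113) and Mmp12 (-1.95, adjusted p = 0.00348) as lower on the control diet (0.942% of all genes called) and Mmp14 (-0.5, adjusted p = 0.0447) as lower on the high-fat diet (0.554%). For Mmp9 in wild-type tissue, for example, the authors' deposited table gives -1.61 with an adjusted p of 9.2e-10, where the edgeR fit gave -1.62 and 0.0244.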

How the data were processed

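RNA-seq of visceral white adipose tissue was measured in 12 libraries, 3 per group, with groups taken from the sample titles. The authors deposited a raw read count per gene and library, and tables with a log2 fold change and an adjusted p-value per gene for 4 comparisons. The genome build was mm10 and the tools were DESeq2 1.32.0, HTSeq 2.0 and HISAT2 2.2.0, per the submitters' processing notes. For the gene annotation and for strand in the counting, the setting is not given in the sources used here. The 5 summary entries per file, 16.8% to 21% of reads, were left out. The analysis used edgeR 4.0.16 under R 4.3.3: filterByExpr (minimum count 10, minimum total 15) kept 16550 genes, libraries were scaled by TMM, and a model with 1 mean per group over all 12 libraries (8 residual degrees of freedom; biological coefficient of variation 20.1%) was tested by quasi-likelihood for 7 comparisons, with p-values adjusted by the Benjamini-Hochberg method over all 16550 genes. The averaged comparisons take the mean of the 2 genotypes or diets. Standard errors are log2 fold changes over the root of F. The script was tested on simulated data. All 47 genes were found in the RefSeq gene table (GRCm38.p6, which is mm10) and among the GENCODE exons used for length. No 2 libraries of a group were alike within counting noise (lowest chi-square per degree of freedom 21.4). The floor of 3 counts covers counting error only, as several reads can stem from 1 molecule.

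The genes and the lists were chosen with earlier results of these data known. Genes named with statistics were those called in any comparison, the 15 with the highest mean CPM, and the 3 with the smallest p per comparison; of each list up to 4 genes with the smallest p. Other genes are given by role or by place in a gene cluster, and were chosen after their values were seen. Alternatives were DESeq2 1.42.0, limma 3.58.1 (voom with quality weights), other size factors, no filter beyond 1 count, the 6 libraries of a comparison alone, a replicate block, leaving out each library, and leaving out the pair of libraries rich in epithelial or in muscle transcripts. Figures were drawn with matplotlib 3.10.9.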

Additional observations from a re-analysis of the deposited data

How the results depend on the processing

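The 31 log2 fold changes refitted under the alternatives (genes called or among the smallest p-values of a comparison) kept their sign in each; the other fold changes in the text were not refitted. Of the 36 genes tested, the number called for diet in wild-type tissue was 2, and it was 5 with no filter beyond 1 count, 1 with the replicate block, 0 without both libraries rich in epithelial transcripts, 0 without both libraries rich in muscle transcripts, and 0 to 2 with each library left out. For diet in transgenic tissue it was 7, and 3 to 7 with each library left out. For the transgene on the control diet it was 0, and 1 with DESeq2 or with no filter, Adamts5 both times. For the transgene averaged over diets it was 0, and 3 with DESeq2 (Adamts4, Adamts5 and Adamts16) and 3 with no filter (Adamts5, Adamts16 and Mmp12). The averaged diet count, 9, was 8 to 12 over all alternatives, and the counts for the transgene on the high-fat diet and for the interaction were 0 in all of them. The cause of these moves was not tested. Over all genes, 188 were called for diet in wild-type tissue, against 868 with DESeq2, 699 with limma-voom, 683 with no filter and 0 to 269 with each library left out. Replicate numbers gave no clear pairing of the libraries, though these values cannot exclude one. Deviations from the group means correlated at -0.13 to 0.24 between same-numbered libraries and at -0.27 to 0.2 between others. Values over 0.1 were found in 4 of 18 same-numbered pairs and 5 of 36 others. Transgenic control library 3 correlated at 0.18, 0.19 and 0.24 with the other libraries numbered 3, which correlated at -0.13 to -0.05 with each other. With the replicate block the counts were 1 for diet in wild-type tissue, 5 in transgenic tissue and 10 in the average. DESeq2 gave no adjusted p for Mmp12 in the transgenic and averaged diet comparisons. At 20.1 to 21.3 M counts per library, the 11 genes that failed the filter, such as Mmp13 and Mmp8, were too shallow to compare.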
